A study of Mus musculus with 16 samples.

Results

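The cytosolic ribosomal protein genes are the genes for the proteins of the cytoplasmic ribosome. They were taken as every gene whose symbol is Rpl or Rps followed by a number, with an optional a, x or l and an optional last digit, together with Rplp0, Rplp1, Rplp2 and Rpsa, leaving out symbols with -ps. Of the 47729 genes with values, 88 matched: 52 for the large subunit, including the 3 proteins of its stalk, and 36 for the small subunit. The mouse annotation (GENCODE M21, GRCm38) gives 83 of them as protein coding and 5 (Rpl6l, Rps12l1, Rps3a2, Rps3a3 and Rps4l) as processed pseudogenes, so the symbol alone does not make a gene a source of ribosomal protein.

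RNA was sequenced from P4 mouse cochleae in 16 libraries, 4 each of DTR IP, DTR input, control IP and control input. All mice carried GLAST-CreERT/+ and Rpl22HA/+, the RiboTag allele in which Cre recombination puts an HA tag on the large subunit protein Rpl22, and the DTR mice also carried Lgr5 DTR-EGFP/+, which makes Lgr5+ supporting cells sensitive to diphtheria toxin (DT). DT and tamoxifen were injected at P1 into mice of both genotypes according to the methods, although the labels mark the control samples as untreated and the others as DTR treated. The 8 pools, each of 8 cochleae from 4 mice after removal of Reissner's membrane, lateral wall and spiral ganglia, each gave 5% of the homogenate as input (RNA of the whole tissue) and 95% to an IP with an anti-HA antibody (RNA held by ribosomes of GLAST-Cre+ cells), so IP and input of the same number come from the same pool.

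A ribosome joins a small subunit, which reads the mRNA, and a large subunit, which forms the peptide bond; the stalk proteins of the large subunit recruit the translation factors. The mRNAs of nearly all ribosomal proteins begin with a run of pyrimidines, the 5' terminal oligopyrimidine (TOP) motif, through which the mTOR pathway switches them between polysomes, where they are translated, and a free pool, where they are not. A RiboTag IP therefore samples these mRNAs as it samples any other, by how much of them sits on tagged ribosomes in the Cre+ cells. Many of these genes carry small nucleolar RNAs in their introns, and many have processed copies elsewhere in the genome.

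The start of the gene carries that motif, so 30-base windows around the RefSeq starts (GRCm38.p6, 15 bases before and 15 from the start on) are shown for 10 genes on which the results below turn. Rpl35, among the strongly lower genes, was added after its values were seen. These 10 do not stand for all lower genes. Rpl37a, Rps19, Rps4x and Rpsa, lower in control IP and not shown, had no run of 6 or more pyrimidines in the window nearest the annotated start (longest 4, 4, 4 and 5). The windows run 5' to 3' along the gene, and capitals mark runs of at least 6 pyrimidines anywhere in the 30 bases. A run can lie before the annotated start, as for Rps27l, or some bases after it, as for Rps12. The RefSeq start used for Rpl35 lay 493 bases from the start of the gene in GENCODE M21, and that for Rplp2 281 bases. For the other genes shown the distance was at most 72 bases. Capitals alone therefore do not mark a TOP motif.
Rps12 (chr10:23787195-23787224, minus strand): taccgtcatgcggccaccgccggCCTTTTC
Rplp0 (chr5:115559452-115559481, plus strand): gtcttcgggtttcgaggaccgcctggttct
Rplp2 (chr7:141447636-141447665, plus strand): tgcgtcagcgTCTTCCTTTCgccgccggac
Rpl35 (chr2:39005117-39005146, minus strand): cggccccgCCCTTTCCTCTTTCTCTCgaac
Rps27l (chr9:66946071-66946100, plus strand): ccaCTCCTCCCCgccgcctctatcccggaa
Rps6 (chr4:86857353-86857382, minus strand): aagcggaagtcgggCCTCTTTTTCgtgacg
Rpl22l1 (chr3:28805493-28805522, plus strand): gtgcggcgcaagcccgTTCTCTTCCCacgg
Rps3 (chr7:99483695-99483724, minus strand): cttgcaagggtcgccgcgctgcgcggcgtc
Rpl11 (chr4:136053379-136053408, minus strand): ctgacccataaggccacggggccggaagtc
Rpl5 (chr5:107900513-107900542, plus strand): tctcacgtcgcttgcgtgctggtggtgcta
RefSeq starts were at hand for 63 of the 88 genes and for 27025 genes in all. A run of 6 or more pyrimidines on the gene's strand lay in this window in 38 of the 63 (60.3%) and in 32.7% of all genes with an entry, and a run of 10 or more in 20 (31.7%) and in 6.25%. The letters CTTTCC, a form the motif often takes, were in the window of 10 of the 63 (15.9%) against 1.67% of all. In the wider 300 bases (250 before the start), CCGGAAG on either strand was found in 26 of the 63 (41.3%) against 9.93%. An annotated start can miss the start in use, so a window without capitals, as for Rps3 or Rpl11, says only that the letters are not in these 30 bases.

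Levels are given as CPM, a gene's reads per 1000000 reads counted in the library, and compared between genes per kilobase of exonic length. That length merges every annotated exon of a gene (383 bases for Rpl36, 2911 for Rpl22). Levels and ranks per kilobase therefore also depend on the annotation. Depth was 28089836 to 41966310 counted reads per library. Per kilobase, the mean level of the 88 genes in control input ran from 0 to 276 CPM, with Rpl36, Rplp0 (274), Rps3a1 (264), Rps29 (257) and Rplp1 (257) at the top. Rpl22, the tagged protein, was at 16.9 CPM per kilobase, the 69th of 88. The lowest were Rpl10l and Rps12l1, with 0 reads in all 16 libraries, where 3 reads would be 0.0715 to 0.107 CPM, and Rpl39l and Rpl3l, with at most 5 and 10 reads in a library. These 4 did not reach the minimum for testing (0.5 CPM in all 4 libraries of a group), which left 84 members among 16994 tested genes.

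Together the 88 genes took close to 1% of the counted reads. In control input they held 0.976, 1.12, 1.10 and 0.943% of the reads in replicates 1 to 4, and in control IP 0.727, 0.670, 0.799 and 0.754%. Every control IP library was below every control input library, and the mean of the IP was 0.712 times that of the input. In DTR input the share was 1.11, 1.11, 1.05 and 0.901%, and in DTR IP 0.729, 0.747, 0.947 and 0.926%. Here the groups overlapped, and the mean of the IP was 0.804 times that of the input. The IP was the lower library in every control pool and in DTR pools 1, 2 and 3, and slightly the higher in DTR pool 4.

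**Figure D1:**
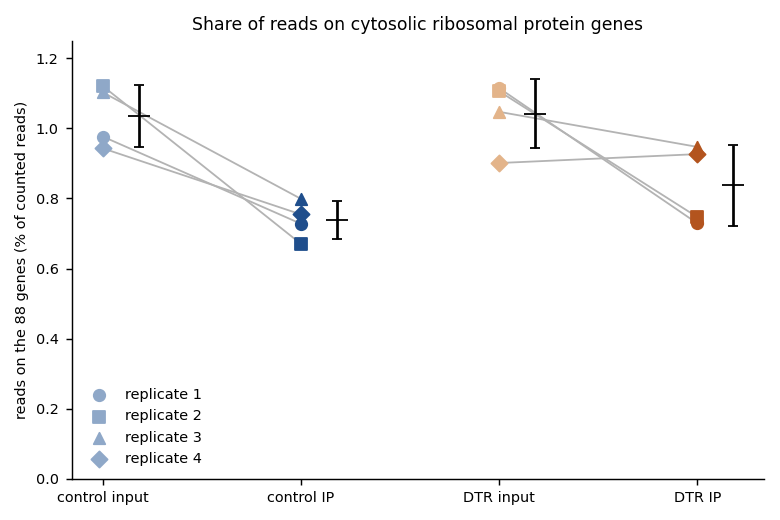
Percent of counted reads on the 88 ribosomal protein genes in each library (y axis, from 0) by group (x axis). Grey lines join the input and the IP of a pool, symbols mark the replicate, and black bars are the mean ± SD (n = 4). The control IP libraries lie at 0.670 to 0.799%, below all control inputs, while DTR IP replicates 3 and 4 lie at 0.947 and 0.926%, close to their inputs.

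The first comparison asked which of these mRNAs were over- or under-represented on the tagged ribosomes of undamaged cochleae relative to the whole tissue. In control IP, 45 of the 84 members were lower than in control input and none was higher (limma, adjusted p under 0.05). That is 53.6% of the members, against 20.5% of all tested genes called lower and 19.2% called higher. The count of 0 higher was also 0 at an unadjusted p under 0.05, in edgeR and in DESeq2. The median LFC (log2 fold change, IP minus input) of the members was -0.44, against 0.00 over all tested genes, and 77 of the 84 were below 0 (background 49.9%). Of the 45, 42 did not overlap between the groups, beside 3093 of the 3490 tested genes called lower. Read over all 84 members, 42 were lower without overlap, against 18.2% of all tested genes. No fall reached 4-fold, and the lowest ratio of IP to input was 0.40, for Rpl32.

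**Figure D2:**
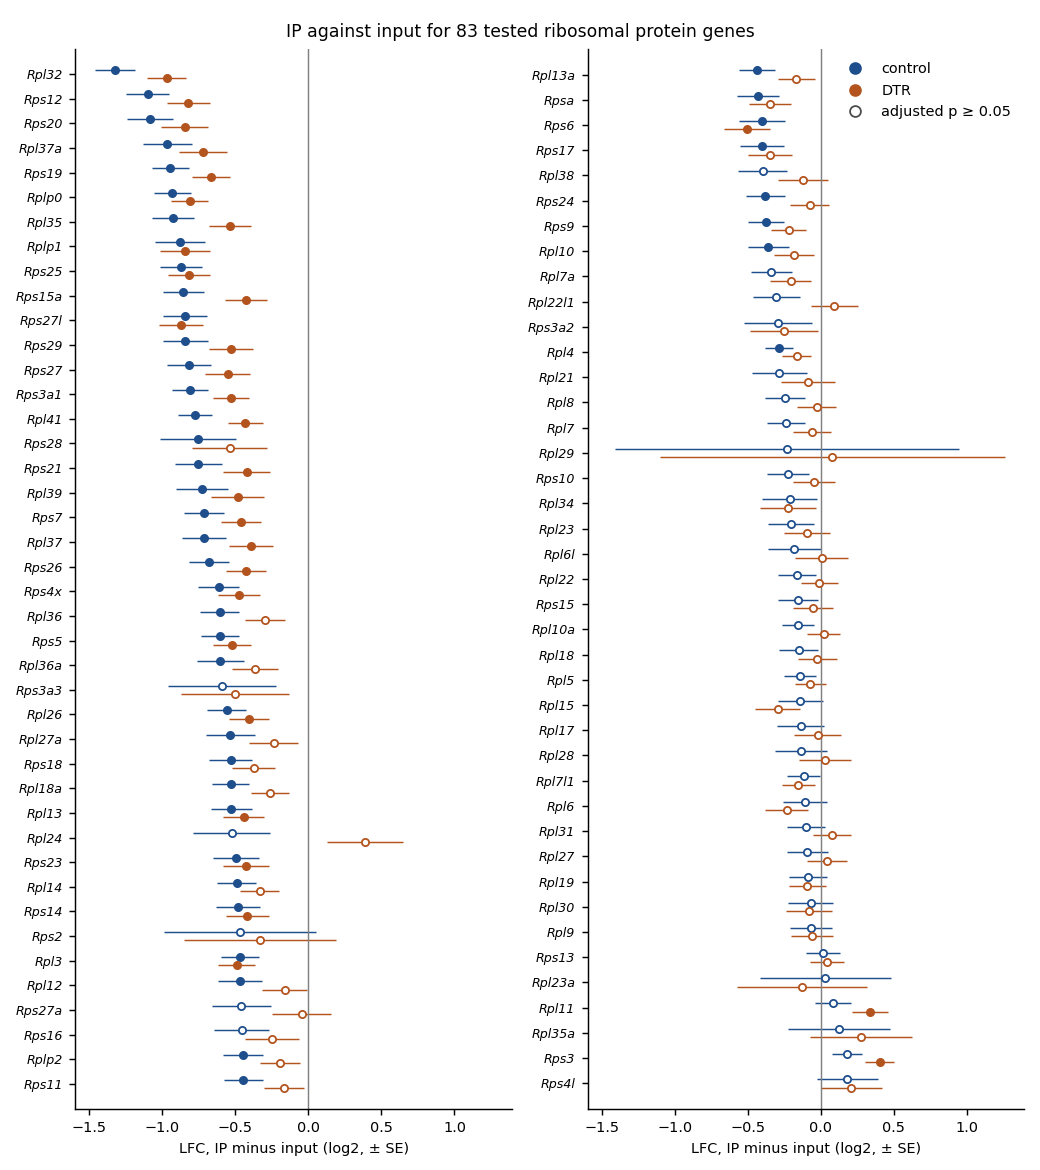
LFC of IP against input (x axis, log2, bars ± SE) for 83 of the 84 tested genes (y axis), ordered from the lowest LFC in control at the upper left to the highest at the lower right. Blue is control and orange DTR, and filled points passed (adjusted p under 0.05). Most blue points lie left of 0, from -1.32 for Rpl32 to 0.18 for Rps4l, and most orange points lie closer to 0.

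The 3 genes with the largest falls in control IP were Rpl32 of the large subunit and Rps12 and Rps20 of the small subunit. Rpl32 was at 211, 245, 234 and 198 CPM in control input and at 87.5, 80.9, 89.4 and 82.1 CPM in control IP (LFC -1.32 ± 0.13 SE, adjusted p = 4.1e-07). The groups lay far apart, the IP at 0.40 times the input. Rps12, a protein of the beak of the small subunit, was at 21.3, 26.2, 25.7 and 20.6 CPM in input and 10.7, 10.2, 12.3 and 8.73 CPM in IP (LFC -1.10 ± 0.15 SE, adjusted p = 1e-05). For Rps20, a protein of the head of the small subunit, the values were 112, 134, 131 and 112 CPM and 56.8, 55.3, 66.9 and 47.99 CPM (LFC -1.08 ± 0.16 SE, adjusted p = 2.8e-05). Neither of these overlapped between the groups. Outside the stalk, Rpl37a, Rps19, Rpl35 and Rps25 came next with LFCs of -0.96, -0.94, -0.93 and -0.87. Rps19 is a small subunit protein whose loss causes Diamond-Blackfan anaemia.

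All 3 stalk genes were lower in control IP. Rplp0, the base of the stalk, fell from 454 ± 43.7 CPM (SD, n = 4) to 224 ± 22.99 CPM (SD, n = 4), with 436, 486, 494 and 401 CPM in the inputs and 228, 191, 245 and 232 CPM in the IPs (LFC -0.93 ± 0.13 SE, adjusted p = 1.3e-05). Rplp1, which binds it as a dimer with Rplp2, fell from 128 ± 21.1 CPM (SD, n = 4) to 68.03 ± 7.66 CPM (SD, n = 4) (LFC -0.87 ± 0.17 SE, adjusted p = 0.00046). Rplp2 fell from 107 ± 8.41 CPM (SD, n = 4) to 77.2 ± 10.96 CPM (SD, n = 4) (LFC -0.45 ± 0.14 SE, adjusted p = 0.014). No library of the IP reached the lowest input for any of the 3.

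The other large subunit genes were lower in 18 of 46 cases (39.1%, background 20.5%), with a median LFC of -0.26. The small subunit genes were lower in 24 of 35 (68.6%, same background), with a median of -0.49. Rps6, the small subunit protein phosphorylated by S6 kinase, was at 209 ± 14.98 CPM (SD, n = 4) in control input and 154 ± 18.4 CPM (SD, n = 4) in control IP (LFC -0.40 ± 0.15 SE, adjusted p = 0.046), and Rpsa, also known as the laminin receptor, at 140.4 ± 21.4 CPM (SD, n = 4) and 103 ± 13.9 CPM (SD, n = 4) (LFC -0.43 ± 0.14 SE, adjusted p = 0.025). Both calls lay close to the threshold, and each was lost without a filter on low values (adjusted p = 0.11 for Rps6 and 0.059 for Rpsa).

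Not all members were lower. Rps3, a small subunit protein at the mRNA entry channel, was at 239, 276, 277 and 235 CPM in control input and 304, 259, 276 and 272 CPM in control IP, and did not pass (LFC 0.18 ± 0.10 SE, adjusted p = 0.19). Rpl11, which with Rpl5 and the 5S rRNA forms a particle of the large subunit that also binds Mdm2, was at 112 ± 11.8 CPM (SD, n = 4) and 117 ± 7.298 CPM (SD, n = 4) (LFC 0.08 ± 0.12 SE, adjusted p = 0.64), and Rpl5 at 154 ± 10.3 CPM (SD, n = 4) and 138 ± 19.2 CPM (SD, n = 4) (LFC -0.14 ± 0.11 SE, adjusted p = 0.31). Rps13, Rpl23a, Rpl35a and Rps4l also had LFCs at or above 0, from 0.01 to 0.18, and none passed.

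Rpl22 itself was not distinguishable between IP and input. It was at 43.8, 56.1, 52.6 and 44.2 CPM in control input and 46.9, 41.6, 48.2 and 40.4 CPM in control IP (LFC -0.16 ± 0.13 SE, adjusted p = 0.34). In the DTR libraries it was at 54.1, 51.9, 50.03 and 39.5 CPM in input and 44.6, 46.5, 56.4 and 49.4 CPM in IP (LFC -0.01 ± 0.13 SE, adjusted p = 0.96). Its groups overlapped in both treatments. The tag sits in the last exon of the same gene, and CPM per gene do not tell tagged from untagged Rpl22 transcripts.

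The same comparison in DTR cochleae, 3 days after DT, gave fewer calls. In DTR IP 28 of the 84 members were lower than in DTR input (33.3%, background 20.5%) and 2 were higher (2.38%, background 18.9%), with a median LFC of -0.23 against -0.02 over all tested genes. The 28 were 62.2% of the 45 genes lower in control IP and 100% of those lower in DTR IP. Without DTR IP replicate 1 the count lower was 17 (20.2%, background 19.7%). Of the 28, 17 did not overlap between the groups, a smaller part than the 2560 of the 3478 tested genes called lower. Read over all 84 members, 17 were lower without overlap, against 15.1% of all tested genes. Rpl32 was again lowest, at 214, 231, 193 and 153 CPM in input and 81.4, 89.2, 119 and 106 CPM in IP (LFC -0.97 ± 0.13 SE, adjusted p = 1.8e-05). Rplp0 (-0.81), Rplp1 (-0.84), Rps20 (-0.85), Rps12 (-0.82) and Rps25 (-0.82) were lower as well, while Rplp2 (LFC -0.20 ± 0.14 SE, adjusted p = 0.27) did not pass.

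The 2 members higher in DTR IP were Rps3 and Rpl11. Rps3 was at 268, 259.8, 255 and 218 CPM in DTR input and 273, 320.0, 305 and 351 CPM in DTR IP (LFC 0.40 ± 0.10 SE, adjusted p = 0.0043), with no overlap between the groups. Rpl11 was at 109, 117, 116 and 96.4 CPM and 113, 129, 169 and 140.1 CPM (LFC 0.34 ± 0.12 SE, adjusted p = 0.038), and its groups overlapped. With each library centred on its median neither passed (adjusted p = 0.06 for Rps3 and 0.097 for Rpl11), and Rpl11 was also lost without DTR IP replicate 3 or 4 or DTR input replicate 1 or 4.

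**Figure D3:**
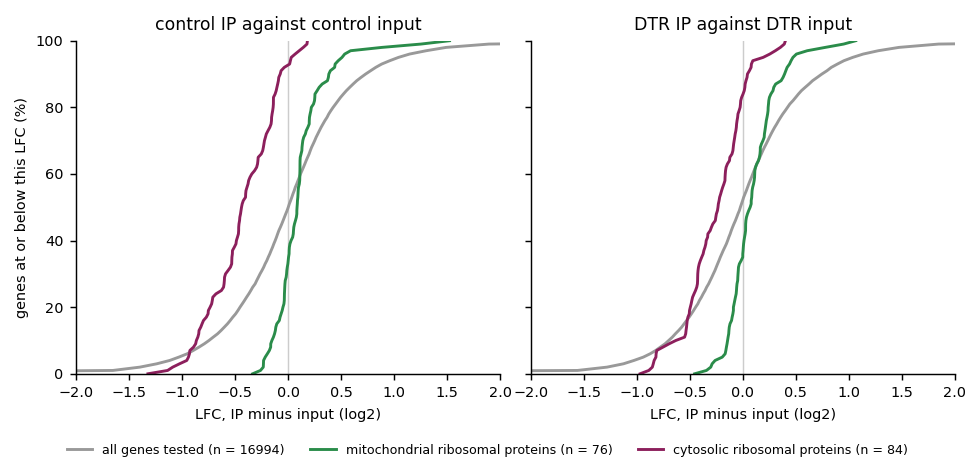
Cumulative distribution of the LFC of IP against input (x axis, log2, limited to -2 to 2; y axis, percent of genes) in control (left) and DTR (right). The curve of the 84 cytosolic ribosomal protein genes lies left of that of all 16994 tested genes at their medians (-0.44 against 0.00 in control, -0.23 against -0.02 in DTR), while the median of 76 mitochondrial ribosomal protein genes lies at 0.08 and 0.07.

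The LFCs of the members in control and DTR, which share no library, had a Pearson's r of 0.88 and a Spearman's rho of 0.87 over the 84 genes, which share their libraries and are not independent. For 73 of the 84 the LFC was higher in DTR. The share of all tested genes with a higher LFC in DTR was not counted. The median of the difference was 0.17 over the members, against -0.003 over all tested genes. With a library left out, the median of the members ran from 0.09 (DTR input replicate 4) to 0.26 (DTR IP replicate 1). It was 0.10 without DTR IP replicate 3 and 0.11 without DTR IP replicate 4 or control IP replicate 2. None of the differences passed the interaction test (edgeR 0, DESeq2 0; 2 at an unadjusted p under 0.05, Rps15a and Rpl24; smallest adjusted p = 0.82), as 0% of all tested genes passed as higher and 0.0118% as lower. By pool, the median log2 difference between IP and input over the 84 genes was -0.38, -0.69, -0.40 and -0.20 in control pools 1 to 4 and -0.52, -0.53, -0.05 and 0.17 in DTR pools 1 to 4. DTR pools 1 and 2 were within the range of the controls, and pools 3 and 4 were above all 4 control pools. In pools 3 and 4, 50 and 28 of the 84 genes were lower in IP, against 60 to 82 in the other 6 pools.

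**Figure D4:**
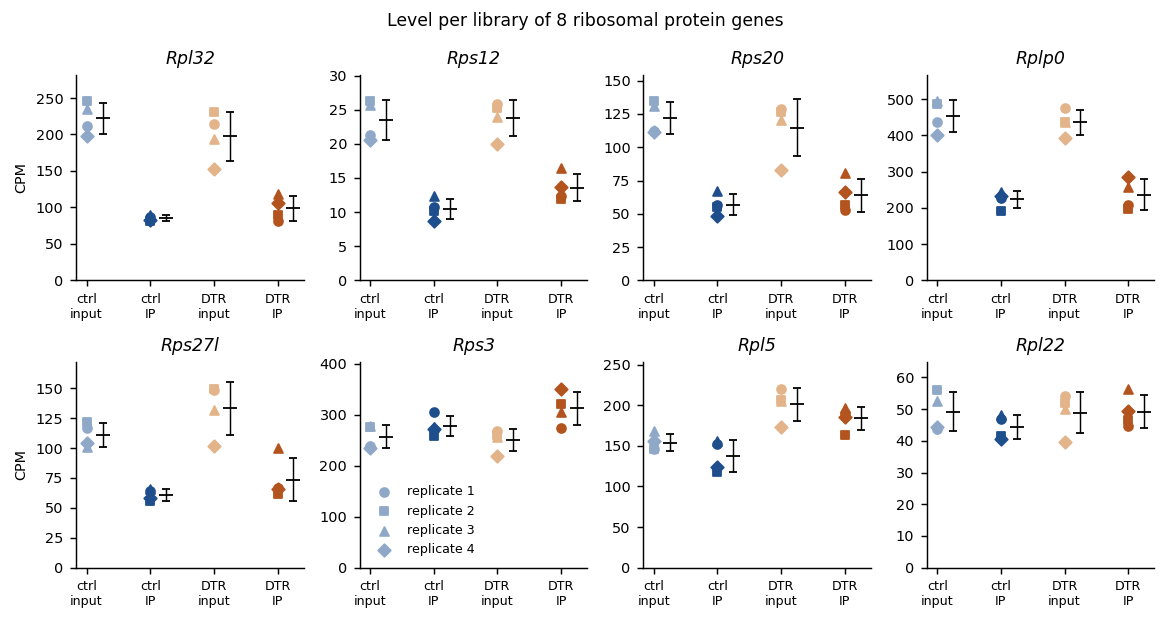
CPM (y axis, from 0) of 8 genes in each library by group (ctrl is control), with symbols for the replicate and black bars for the mean ± SD (n = 4). Rpl32, Rps12, Rps20, Rplp0 and Rps27l are lower in IP than in input in both treatments, Rps3 is higher in DTR IP, Rpl5 is higher in DTR than in control in both fractions, and Rpl22 overlaps between all groups.

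The comparison of DTR with control asked whether damage changed these mRNAs within a fraction. In DTR IP 2 of the 84 members were higher than in control IP, Rpl5 and Rps15 (2.38%, background 8.29%), and none was lower (background 7.27%; 0 also at an unadjusted p under 0.05, in edgeR and in DESeq2). The median LFC was 0.16, against -0.01 over all tested genes, and 75 of the 84 were above 0 (background 49.3%). That median was 0.09 without DTR IP replicate 3, 0.10 without DTR IP replicate 4 or control IP replicate 2 and 0.26 without DTR IP replicate 1, and 0.11 in edgeR and in DESeq2. In DTR input 1 member, Rpl5, was higher than in control input (1.19%, background 7.10%) and none was lower (background 5.33%; 0 also at an unadjusted p under 0.05, in edgeR and in DESeq2), with a median LFC of -0.02 (-0.06 to 0.05 with a library left out) against -0.02 over all tested genes. In this fit the share of members called was below that of all tested genes in both fractions.

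Rpl5 was the one member to pass in both fractions. It was at 152, 118, 156 and 124 CPM in control IP, whereas DTR IP had 191, 163, 196 and 185 CPM (LFC 0.45 ± 0.11 SE, adjusted p = 0.0066), and at 146, 146, 168 and 155 CPM in control input and 220.3, 206, 205 and 173 CPM in DTR input (LFC 0.38 ± 0.11 SE, adjusted p = 0.024). Every DTR library was above every control library of its fraction. The call in input was lost when any of control input replicates 1 and 2 or DTR input replicates 1, 2 and 3 was left out, with LFCs that stayed at 0.34 or above. Its gene (chr5:107900502-107909005, plus strand) shares exonic sequence with Snord21 on its own strand and with Fam69a on the other, whose reads cannot be told apart here without the strand.

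Rps15, a protein of the small subunit head, was at 110.5, 105, 129 and 128 CPM in control IP, whereas DTR IP had 140.4, 127, 182 and 192 CPM (LFC 0.42 ± 0.14 SE, adjusted p = 0.041). In input it was at 128, 149, 142 and 117 CPM in control and 182, 170.2, 154 and 162 CPM in DTR (LFC 0.32 ± 0.14 SE, adjusted p = 0.15), where the groups did not overlap but the test did not pass. With the replicate number as a block, 6 members were higher in DTR IP (7.14%, background 12.1% under the same block): Rpl5, Rps15, Rpl34 (LFC 0.54, adjusted p = 0.014), Rpl24 (0.72, 0.023), Rpl21 (0.45, 0.028) and Rpl10a (0.33, 0.034). In input 2 were (2.38%, background 9.66%), Rpl5 and Rpl34 (LFC 0.55, adjusted p = 0.015). With the trend of level on gene length removed within each library, 8 members were higher in DTR IP (9.52%, background 8.45%). With the block as well 13 were (15.5%, background 11.9%), so in these fits the share was above that of all tested genes. Leaving out 1 library gave between 1 and 5 (1.19 to 5.95%, background 6.28 to 8.58%). The count was 1 where DTR IP replicate 3 or 4, DTR input replicate 2, or control IP replicate 1 or 2 was missing. It was 4 without DTR IP replicate 1 and 5 without DTR IP replicate 2.

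**Figure D5:**
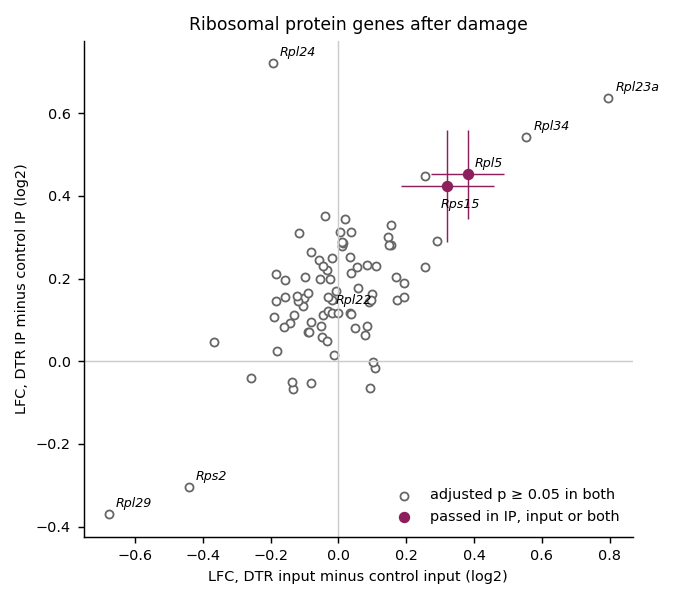
LFC of DTR against control for each of the 84 genes in input (x axis, log2) and in IP (y axis, log2). Filled points with SE bars are the genes that passed in either fraction, Rpl5 (0.38 in input, 0.45 in IP) and Rps15 (0.32, 0.42). Most genes lie near 0 in input and slightly above 0 in IP, and the genes far out, such as Rpl29 and Rpl23a, had large errors and did not pass.

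The paralogs followed no single pattern. Rps27l, a p53 target close in sequence to Rps27, was at 117, 122, 101 and 104 CPM in control input and 63.8, 55.5, 65.5 and 57.9 CPM in control IP (LFC -0.84 ± 0.15 SE, adjusted p = 0.00016), and at 149, 149.6, 132 and 102 CPM in DTR input and 66.5, 61.98, 100.3 and 65.96 CPM in DTR IP (LFC -0.87 ± 0.15 SE, adjusted p = 0.00014). It was lower in IP without overlap in both treatments, and Rps27 passed as lower in both as well (LFC -0.82 in control, -0.55 in DTR), with overlap in DTR. Per kilobase Rps27l (136 CPM in control input) was at the level of Rps27 (116). After damage it was not called in either fraction (LFC 0.25 in input, 0.23 in IP, adjusted p = 0.32 and 0.34).

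Rpl22l1, the paralog of the tagged protein, was at 18.6, 20.05, 18.8 and 17.6 CPM in control input and 16.2, 16.9, 14.3 and 13.1 CPM in control IP (LFC -0.30 ± 0.16 SE, adjusted p = 0.14), apart in level but not called. Its level per kilobase in control input was 9.44 CPM, below the 16.9 of Rpl22. Rpl7l1, a relative of Rpl7 with a role in ribosome assembly, was at 142 ± 9.89 CPM (SD, n = 4) in control input and 129 ± 14.7 CPM (SD, n = 4) in control IP (LFC -0.12 ± 0.11 SE, adjusted p = 0.44). Rps4x, the X-linked form of the small subunit protein S4, was lower in IP in both treatments (-0.61 in control, -0.48 in DTR, adjusted p = 0.0021 and 0.013). Its processed copy Rps4l was at 61.6 ± 8.36 CPM (SD, n = 4) in control input and 73.2 ± 26.7 CPM (SD, n = 4) in control IP (LFC 0.18 ± 0.21 SE, adjusted p = 0.53), and Rpl6l at 5.23 ± 0.625 CPM (SD, n = 4) and 4.17 ± 0.566 CPM (SD, n = 4) (LFC -0.18 ± 0.18 SE, adjusted p = 0.46). Rpl3l, the muscle form of Rpl3, had 4 to 10 reads in the 4 DTR IP libraries, 10 in DTR input replicate 3 and 0 to 2 in the other 11 libraries.

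A few members varied between pools far more than between groups; they were picked after their values were seen. Rpl29, a small protein of the large subunit, was at 19.6, 16.6, 0.822 and 10.6 CPM in control input and 19.6, 10.5, 0.4997 and 10.98 CPM in control IP, and in DTR at 25.1, 0.824, 0.894 and 20.7 CPM in input and 16.4, 1.14, 1.33 and 25.1 CPM in IP. Control pool 3 and DTR pools 2 and 3 were near 1 CPM in both fractions and the other 5 pools at 10.5 CPM or above, so the low pools were the same in input and in IP. The SD between pools, on the log2 scale, was 2.04, against a median of 0.13 over the members and 0.19 over all tested genes. Rps2, a protein of the body of the small subunit, came next with an SD of 0.88. In control it was at 18.4, 43.9, 13.2 and 37.8 CPM in input and 10.2, 27.5, 11.7 and 32.5 CPM in IP. In DTR the input libraries held 10.4, 26.8, 10.6 and 42.6 CPM and the IP libraries 8.03, 21.5, 9.64 and 30.3 CPM. In each group replicates 1 and 3 were the lower and 2 and 4 the higher. Over the 8 pools the deviations of IP and input from their group means had a correlation of 0.98 for Rpl29, 0.95 for Rps2 and 0.82 for Rpl35a, the third in SD, against medians of -0.27 over the members and 0.36 over all tested genes. At the other end Rps3 had the smallest SD between pools of the members, 0.046. Its IP and input tended to deviate in opposite directions (correlation -0.76), so its single libraries were not the most constant. The highest CPM of Rps3 was 1.609 times its lowest, against 1.405 times for Rps13.

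Genes related to the ribosome but outside the symbol rule were read beside the members. Of 17 other mRNAs known to carry a TOP motif, most of them translation factors, 7 were lower in control IP (41.2%, background 20.5%) and none higher (background 19.2%), among them Eef1a1 (-0.55, adjusted p = 0.0015), the elongation factor that brings tRNA to the ribosome, and Eif3e (-0.61, 0.0016), a subunit of an initiation factor. Their median LFC was -0.25. In DTR IP 3 of the 17 were lower, 17.6% against 20.5% of all tested genes. Of 76 tested mitochondrial ribosomal protein genes, which serve the ribosome of the mitochondrion, 10 were higher and none lower in control IP, and again 10 and none in DTR IP. The 13.2% higher was below the 19.2% and 18.9% of all tested genes called higher.

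Ribosome biogenesis factors build ribosomes in the nucleolus. Of 69 tested, 27 were lower and 3 higher in control IP (39.1% and 4.35%, background 20.5% and 19.2%), and 24 and 4 in DTR IP (34.8% and 5.80%, background 20.5% and 18.9%), with Heatr1 (-1.18) and Nat10 (-1.16) lowest in control. After damage 16 were higher in DTR IP and 13 in DTR input, with none lower in either and 53 and 56 that did not pass (23.2% and 18.8%, read against 8.29% and 7.10% of all tested genes). They included Gnl3, known as nucleostemin (0.94 in IP, 0.90 in input), Rrp1b (1.03 and 1.17), Rrp9 (0.90 and 1.00) and Nop58 (0.61 and 0.69). The corresponding shares of ribosomal protein genes were 2.38% and 1.19%.

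Markers of other cells moved with the fall in IP. Over the 8 lists of cell type markers, 50 genes in all, none was at 0 in any library. The summed level of 5 Schwann cell markers was 2421 to 4340 CPM in control input and 764 to 1193 CPM in control IP, with 4 of 5 lower. The 5 macrophage markers were at 82.6 to 86.8 and 12.9 to 20.2 CPM with 5 of 5 lower, the 5 endothelial markers at 100.7 to 125 and 28.8 to 45.2 CPM with 5 of 5 lower, and 10 hair cell markers at 609 to 840 and 280.5 to 339 CPM with 8 of 10 lower and 2 higher. The 5 mesenchyme markers were at 4999 to 5709 and 2227 to 3351 CPM with 4 of 5 lower, the 5 neuron markers at 178 to 729 and 106.5 to 299.8 CPM with 2 of 5 lower, and the 5 red blood cell markers at 358 to 622 and 74.1 to 128 CPM with all 4 tested lower. The 10 supporting cell and greater epithelial ridge markers were at 6866 to 10900 and 7586 to 8383 CPM, with 4 higher and 3 lower, and Slc1a3, the gene whose promoter drives the Cre, did not pass (LFC -0.20, adjusted p = 0.10). In DTR libraries the macrophage sum was 111.6 to 181 CPM in input and 30.9 to 44.6 CPM in IP, and that of the supporting cell markers 6424 to 8214 and 6163 to 7617 CPM. The mesenchyme sum was 4588 to 6007 CPM in DTR input and 3862 to 4674 CPM in DTR IP, where 1 of 5 markers was lower and 1 higher than in DTR input. Against control IP 3 of these 5 were higher in DTR IP (median LFC 0.48). This sum, like the share of reads on the ribosomal protein genes, lay closer between IP and input in DTR than in control. Mesenchyme was not alone in this. The median LFC of IP against input was smaller in size in DTR for Schwann cell (-2.07 in control, -1.43 in DTR), endothelial (-1.57, -1.24), hair cell (-1.11, -0.79) and red blood cell markers (-2.16, -2.01). It was not for macrophage (-1.85, -1.89) or neuron markers (-1.11, -1.29). Nor was it for supporting cell and greater epithelial ridge markers, whose median changed sign (0.16 in control, -0.29 in DTR). The part of these cells in the values of the ribosomal protein genes was not tested, and fewer cells of a type cannot be told apart from less RNA per cell. Lgr5, whose cells were ablated, fell after damage by 2.00 on the log2 scale in input and by 1.93 in IP.

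Gene structure was read beside the calls. The members were short, with a median exonic length of 1730 bases against 3994 over the tested genes, and 82 were below that median. With the trend of level on length removed within each library, 53 members were lower in control IP (63.1%, background 21.3%) and 39 in DTR IP (46.4%, background 21.7%). The main fit gave 45 and 28. Among the members, LFC in control IP had a Spearman's rho of 0.24 with length, -0.10 with mean CPM and 0.24 with the number of -ps copies listed (84 genes of the same libraries, a description). Exons of 39 members overlap another annotated gene, mostly a small nucleolar RNA. Of the 46 tested members without such overlap 27 were lower in control IP (58.7%, background 20.5%). The files list 274 ribosomal protein pseudogenes by -ps symbols, at 0.0470 to 0.0877% of reads in a control library, and 59 members have at least 1, so reads can be lost to or shared with copies. Of the 25 tested members without one, 15 were lower in control IP and 10 in DTR IP (60% and 40%, background 20.5% in each). In the 30-base windows, on either side of the start, runs of at least 6 pyrimidines were in 67.6% of the 34 lower members with an entry. They were in 53.8% of the 26 that did not pass, and runs of at least 10 in 26.5% and 42.3%.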

How the data were processed

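By the methods, reads were mapped on GRCm38 (HISAT2) and assigned to genes (HTSeq), and the authors deposited the values as CPM, 1 column for each library. The submitters' processing notes name TopHat. The strand setting and the annotation release are not given in the sources used here. Divided by what 1 read is worth, 100% of the CPM above 0 came within 0.01 of a whole number, and edgeR and DESeq2 were run on these recovered reads. Of 50316 genes listed, 47729 had values. Depth was 28089836 to 41966310 counted reads per library; limits from read counts cover counting error only.

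Quantile normalization of the CPM across the 16 libraries was followed by log2(CPM + 0.5), so the LFC of low genes is understated. Genes at 0.5 CPM or more in all 4 libraries of a group were kept (16994). A model of the 4 groups was fitted in limma 3.58.1 (R 4.3.3), with the variance trended on the mean, two-sided, with Benjamini-Hochberg adjustment over all tested genes. The interaction term is the LFC after damage in IP minus that in input. Overlap was read from the deposited CPM. Alternatives, with edgeR 4.0.16 and DESeq2 1.42.0 among them, stand in the closing section. The replicate number was tested as a block: same-numbered libraries deviated together in the 4 pairs of groups compared (correlations 0.288 to 0.564), and IP and input of a number share a pool by the methods, while for control and DTR only the number is shared. P-values of the main fit measure the spread between the libraries of a group, each from a different pool. They treat the IP and the input of a pool as independent. The fit was also run on simulated data with 200 changed genes. Those libraries were drawn independently, so the effect of shared pools was not tested.

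Members and lists were chosen with earlier results of these data known. Named were Rpl22, the stalk genes, Rpsa, Rpl5, Rpl11, Rps6, the members ending in l, x or l1, and up to 3 members per direction and comparison with the largest LFC among those that passed without overlap; other genes were chosen after their values were seen. Windows came from RefSeq, and gene positions and lengths from GENCODE M21. The values of 1 member and of a list of related genes are not reported here; the member is in all counts.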

Additional observations from a re-analysis of the deposited data

Results flagged for a closer look

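Of 76 sets of 4 libraries (the summed share and the named genes in each group) 3 held a library that stood apart by Dixon's criterion at 95%, about what chance flags (1 in 20). Rps27l was at 100.3 CPM in DTR IP replicate 3, against 61.98 to 66.49 CPM in the other 3 libraries. Rpl11 was at 106.0 CPM in control IP replicate 2, against 119.2 to 121.6 CPM. Rpl6l was at 4.385 CPM in DTR input replicate 4, against 5.524 to 5.707 CPM.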

How the results depend on the processing

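The median LFC of the members in IP against input stayed negative in every fit. By pool it did not. In DTR pool 4 the median difference was 0.17, and 28 of the 84 genes were lower in IP. Over the libraries left out in turn, 35 to 47 members were lower in control IP (41.7 to 56.0%, background 17.4 to 21.3%). In DTR IP 17 (20.2%, background 19.7%, without DTR IP replicate 1) to 33 (39.3%, background 19.5%, without DTR input replicate 4) were lower. Under the other settings 39 to 58 were lower in control IP (45.3 to 69.0%, background 9.83 to 26.5%) and 21 to 47 in DTR IP (24.4 to 56.0%, background 9.43 to 27.5%). With the replicate block these counts were 48 and 32, with edgeR 42 and 28, with DESeq2 46 and 33, and with the length trend removed together with the block (added after seeing the data) 58 and 47. The pairing moved a count by over 1.5 times only after damage. With the replicate block 6 members were higher in DTR IP in place of 2 (7.14%, background 12.1%), and 2 in DTR input in place of 1 (2.38%, background 9.66%). In DTR IP against control IP the count higher was 5 (5.95%, background 10.1%) without quantile normalization or with totals that leave out the members. It was 8 (9.52%, background 8.45%) with the length trend removed and 13 (15.5%, background 11.9%) with that and the block. Median centring (background 8.87%), no filter (4.02%), only the groups compared (5.83%) and edgeR (7.86%) each gave 1 (1.16 to 1.19%). Leaving out a library gave 1 to 5 (1.19 to 5.95%, background 6.28 to 8.58%). In DTR input the count higher was 2 (2.38%) without quantile normalization, with totals that leave out the members (background 7.64% each), or with DESeq2 (background 8.05%). It was 3 (3.57%) with only the groups compared (background 7.90%) or with length trend and block (background 10.1%), where 1 was lower (1.19%, background 8.72%). Leaving out a library gave 0 to 2 (at most 2.38%, background 5.23 to 7.51%). The count was 0 where control input replicate 1 or 2 or DTR input replicate 1, 2 or 3 was missing. The 2 members higher in DTR IP than in DTR input became 0 with median centring and 1 with the length trend removed (with or without the block), with no filter or with only the groups compared, and 1 to 2 when a library was left out. The share of members was at most 2.38%, against a background of 8.85 to 22.9% in these fits. The cause of these changes was not tested. The ratio of IP to input in the share of reads was 0.712 in control (0.692 to 0.734 with a library left out) and 0.804 in DTR (0.768 to 0.838). No member passed the interaction test under any setting. Of 22 called comparisons of named genes, none changed sign; 9 of 286 other settings and 26 of 352 with a library left out took the call away. Depth limited Rpl39l and Rpl3l, with at most 10 reads in a library, to counts without a test.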
